A study of Sparassis latifolia with 18 samples.

Results

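The 49 genes described here reached their highest level at 5d of pine sawdust inducing (PSI), the fourth of 5 times at which mycelium of Sparassis latifolia was studied. S. latifolia is an edible brown-rot mushroom that lives on conifers. Brown-rot fungi break down the cellulose and hemicellulose of wood and leave most of the lignin in a modified form, and their gene expression is known to change in stages as they pass from first contact with wood to its decay. RNA-seq libraries were made from mycelium of strain SP-C in liquid culture. The control group CK had no time with sawdust, and the other groups had 1 h (1h), 6 h (6h), 1 d (1d), 5 d (5d) and 10 d (10d). According to the methods of the study, sterilized fresh pine sawdust was added to the flasks at different times, all flasks were harvested together and the sawdust was filtered off. The 6 groups therefore shared strain, medium and harvest, and each had 3 libraries, which the study calls biological replicates. A single strain in shaken broth stands here for growth on wood.

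The deposited table gives FPKM, the number of fragments scaled by transcript length and by library size, for 1100 genes. The members were chosen on log2(FPKM + 1), averaged over the 3 libraries of each group. A member carries an EVM identifier of the genome annotation, is in none of the gene lists that the supplement of the study annotates, and has a mean FPKM under 300. Its highest group mean is that of 5d and lies at least 1 above its lowest. Of 813 genes that met the first conditions, 704 had a range of at least 1. The highest group was CK for 198 of them, 1h for 155, 6h for 148, 1d for 72, 5d for 49 and 10d for 82. These group means chose the members, so the height at 5d and all differences between 5d and other groups are descriptions here. None of the 49 identifiers has a gene name or a protein description in the sources used, and they are called by their identifiers. The label of the samples as mycelium could not be checked against marker genes for the same reason.

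The study left 4 libraries out of its gene comparisons because of their correlations, and one of them, T-5d-2, is among the 5d libraries that chose the members. The others were CK-1, T-1h-3 and T-1d-3. The FPKM sums over the 1100 genes ran from 103912 to 148824 per library. The study lists the clean reads of each library, and T-5d-2 had the fewest. The table holds no read counts per gene, so the number of reads behind a value is unknown, and the spread between libraries alone gives the errors. T-5d-2 lay below both other 5d libraries for 30 of the 49 members, against 44.8% of all genes, and above both for 17, against 44.2%. Levels and steps are those of all 18 libraries, and tests are those of the 14 kept ones with the difference on 18 beside them. In bulk mycelium, fewer cells that make an RNA and less RNA per cell cannot be told apart.

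The median of the members stayed near CK over the first day and then rose, while the members themselves moved in both directions early on. Their median difference from the CK mean on the log2(FPKM + 1) scale was -0.17 at 1h, 0.062 at 6h and 0.15 at 1d. At 5d it was 1.10, and at 10d it was 0.71. On the 14 kept libraries it was -0.26 at 1h, 0.031 at 6h, 0.16 at 1d, 1.13 at 5d and 0.62 at 10d. The median of all 1100 genes moved the other way late in the course, to -0.19 at 5d and -0.40 at 10d. This fall depended on the scaling of the libraries. After quantile normalization the median of the 1088 genes tested below, on the 14 kept libraries, was 0.0016 at 5d and 0.012 at 10d. That of the members was then 1.085 and 0.79. At 5d every member lay above its CK mean, as the rule requires, and at 10d 46 of 49 did, against 42.5% of all genes. The rule used the means of CK and 10d too, so nothing is read from that difference. The plot of the course over time shows the height at 5d that the rule sets, and members on both sides of CK at 1h, 6h and 1d. On 18 libraries the quartiles of their differences from CK were -0.44 and 0.23 at 1h, -0.14 and 0.48 at 6h. At 1d they were -0.16 and 0.53. The differences ran from -1.17 to 1.52 at 6h and from -1.86 to 1.42 at 1d, and the lowest at 1h was -1.33. The mean level of the members over the 18 libraries ran from an FPKM of 2.84 to 259, with a median of 46.5.

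**Figure D1:**
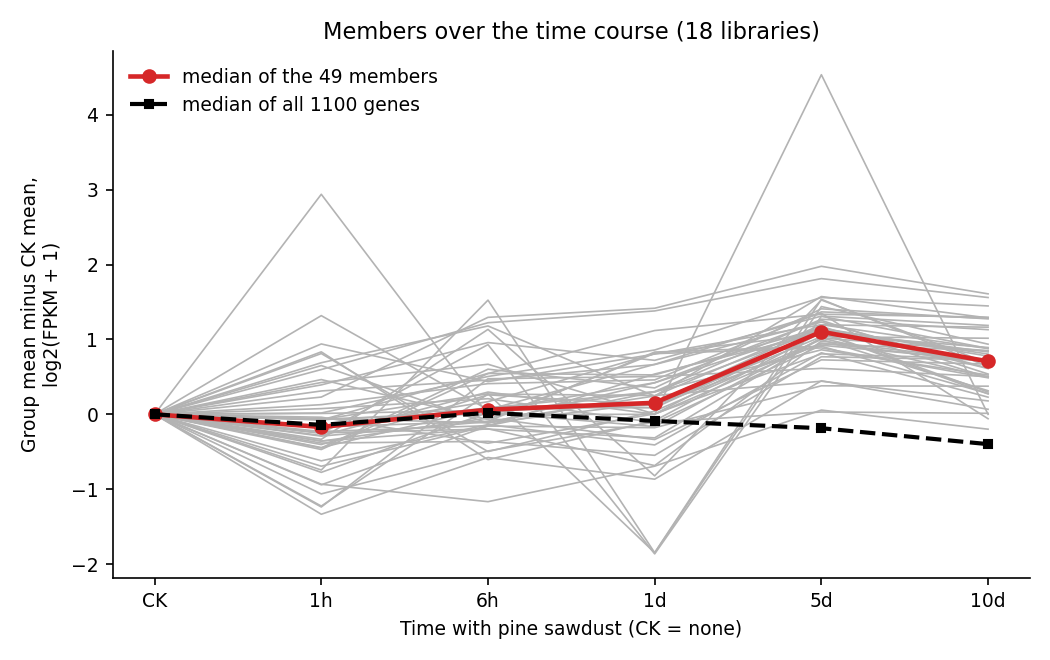
Difference of each group mean from the CK mean in log2(FPKM + 1) units (y axis) over the 6 groups (x axis), with 1 grey line per member, the median of the 49 members in red and the median of all 1100 genes as a black dashed line. The red line is at 1.10 at 5d and 0.71 at 10d, where the dashed line is at -0.19 and -0.40.

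The step from 5d to the next highest group was small for most members. Its median was 0.20 on the log2 scale, 9 members had a step of 0.5 or more, and 15 had one under 0.1. On the 14 kept libraries the median step was 0.23 and 12 members reached 0.5, while for 8 another group was higher than 5d. EVM0011023 had a step of 0.68. Its FPKM was 22.4, 33.1 and 34.6 in CK, 34.6, 30.9 and 21.3 at 1h, 26.0, 27.9 and 27.7 at 6h, 30.2, 37.8 and 31.3 after 1d, 81.3, 54.8 and 69.8 at 5d, then 40.3, 44.6 and 41.1 at 10d. The lowest 5d library, T-5d-2, was still above each library of the other groups. EVM0011496 had a step of 0.59 and the tightest 5d group among the tall peaks. Its FPKM was 13.3, 18.4 and 15.9 in CK, 11.2, 9.62 and 8.87 at 1h, 13.6, 13.0 and 16.1 at 6h, 10.8, 14.4 and 9.93 after 1d, 27.9, 29.1 and 28.6 at 5d, then 17.3, 17.5 and 21.1 at 10d. Here T-5d-2 was the highest of the 5d libraries. EVM0003833 rose in stages through the first day before its peak, with an FPKM of 21.0, 25.4 and 24.4 in CK, 28.3, 30.7 and 29.3 at 1h, 31.6, 33.8 and 32.5 at 6h, 39.5, 38.3 and 35.8 after 1d, 63.7, 44.3 and 63.9 at 5d, then 37.3, 35.3 and 37.0 at 10d. Its 10d libraries were back at the level of 1d, and its step over 1d was 0.57.

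EVM0008935 and EVM0001422 stood at higher levels with the same kind of peak. EVM0008935 had an FPKM of 179, 158 and 181 at 5d and of 123, 106 and 126 at 10d, and in CK it was at 78.2, 80.3 and 72.5. EVM0001422 was at 167, 115 and 171 at 5d, 102, 102 and 105 at 10d, against 55.9, 85.1 and 80.9 in CK. Both had T-5d-2 as their lowest 5d library, and in both it was above every library of the other groups. EVM0001422 was also one of the members with their lowest mean at 1h, where its FPKM was 50.1, 42.4 and 35.1. EVM0012924 differed in that T-5d-2, at 65.4, was the highest library and T-5d-1 and T-5d-3, at 46.3 and 44.7, lay below T-10d-2 at 49.3. Its groups 5d and 10d overlapped.

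**Figure D2:**
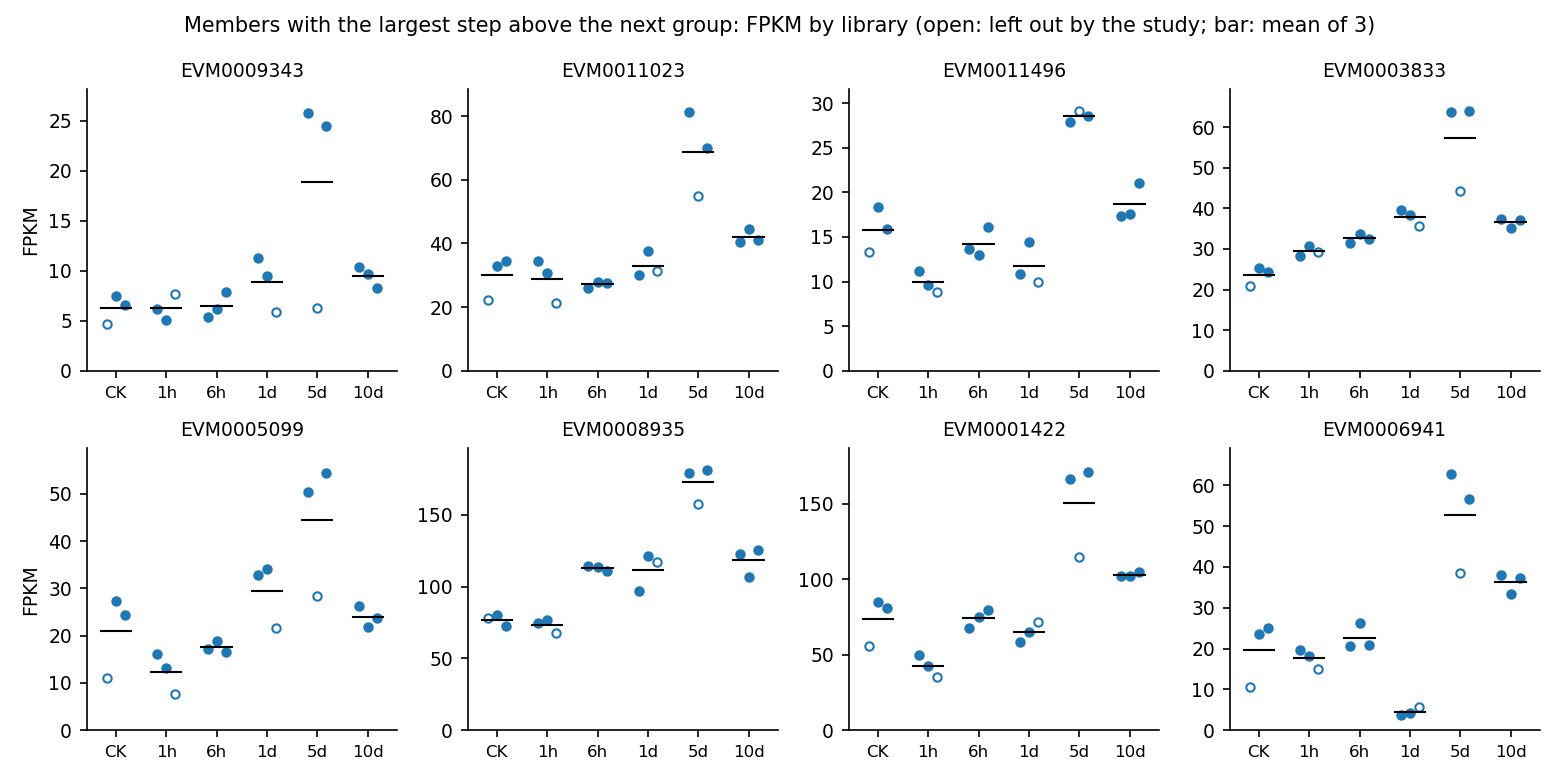
FPKM (y axis) of 8 members by group (x axis), with a point per library, open circles for the libraries that the study left out and a bar for the mean of 3. In EVM0011496 the 5d points lie together between 27.9 and 29.1, while in EVM0009343 the open 5d point at 6.30 lies apart from 25.8 and 24.5.

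For 9 of the 49 members, all 3 of the 5d libraries lay above all 15 others, against 1.64% of all genes. The rule chose genes with high 5d libraries, so nothing is read from this difference. They were EVM0011496, EVM0008935, EVM0011023, EVM0003833, EVM0001422, EVM0012943, EVM0009327, EVM0001219 and EVM0006941. EVM0012943 had an FPKM of 222, 192 and 229 at 5d, 171, 174 and 177 at 10d, against 102, 92.4 and 97.7 in CK. EVM0001219 was at 27.7, 26.2 and 39.2 at 5d, and the highest library elsewhere was T-6h-1 at 24.7. T-5d-1 and T-5d-3 lay above the 16 other libraries, T-5d-2 included, for 24 members, against 4.82% of all genes.

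EVM0002866 had the tallest peak on all 18 libraries, with a step of 1.60 over 1h, and it was unlike the other members. On the 14 kept libraries, which lack T-1h-3, its step was 0.18, below the 1.21 of EVM0009343, and its 1h and 5d libraries overlapped. EVM0002866 was listed at 0 in 13 of the 18 libraries. Its FPKM was 21.6, 20.5 and 24.6 at 5d, 17.0 in T-1h-1, 23.9 in the second 1h library, and 0 in T-1h-3 and in all libraries of CK, 6h, 1d and 10d. The libraries thus held either none of it or a level between 17.0 and 24.6, with nothing in between. No other member was listed at 0 in any library, and 2.55% of all genes were. A value of 0 in a table of FPKM can also stand for an estimate that failed, which was not tested, and no fold change is given against groups at 0.

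Whether a gene counted as a member depended in part on T-5d-2. Applied to the 14 libraries that the study kept, the same rule gave 55 genes, and 41 of them were among the 49. The 8 members lost were EVM0005225, EVM0005285, EVM0007648, EVM0008184, EVM0009207, EVM0009475, EVM0011367 and EVM0013063, named after their values were seen. In all 8, T-5d-2 was the highest 5d library. Without it 10d became the highest group for 7 and 1h for the other. EVM0009475, for example, had an FPKM of 70.5, 108 and 62.8 at 5d and 80.0, 68.7 and 83.5 at 10d. EVM0005285 was at 222, 345 and 231 and 233, 238 and 239. In both, the 2 kept 5d libraries did not lie above the 10d libraries, so that the peak at 5d was that of 1 library.

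In other members T-5d-2 lacked a peak that the other 5d libraries had. It was under 0.5 of their mean for 3 members, EVM0009343, EVM0003835 and EVM0006112. EVM0009343 had an FPKM of 4.69, 7.50 and 6.59 in CK, 6.15, 5.06 and 7.68 at 1h, 5.34, 6.22 and 7.92 at 6h, 11.3, 9.46 and 5.88 after 1d, 25.8, 6.30 and 24.5 at 5d, then 10.4, 9.70 and 8.25 at 10d. T-5d-2 lay within the range of the CK libraries, while T-5d-1 and T-5d-3 were clear of T-1d-1, the highest of the other libraries at 11.3. EVM0005099 had the same pattern in a milder form, with 50.4, 28.3 and 54.5 at 5d and 32.8, 34.0 and 21.6 at 1d. The plot of the 5d libraries shows both sides. EVM0006112 and EVM0003835 lie far to the right with T-5d-2 near the 10d mean, while EVM0009475 lies at the left with T-5d-2 alone above it. T-5d-2 was nearer to the 10d mean than to that of T-5d-1 and T-5d-3 for 34 of the 49 members, and this held for 60.0% of all genes. For the 55 genes chosen without it, T-5d-2 took no part in the choice, but the group means it is set against were chosen to be below 5d, so the shares below are in part set by the rule. It lay above the CK mean in 50 of them, against 42.6% of all genes, and above the 10d mean in 40, against 62.8%. It was above the mean of every other group in 30, against 13.0%.

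**Figure D3:**
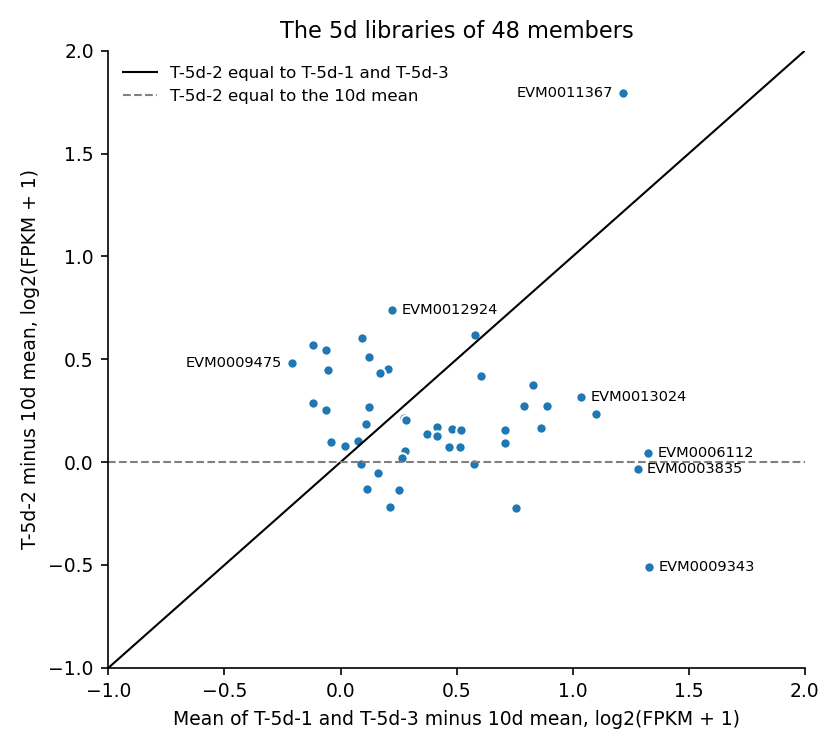
Position of T-5d-2 (y axis) and of the mean of T-5d-1 and T-5d-3 (x axis) relative to the 10d mean, both in log2(FPKM + 1) units, with a point per member and without EVM0002866, which was listed at 0 at 10d. Points under the solid line have a lower T-5d-2, among them EVM0009343, and the 8 members that the rule lost on 14 libraries lie above that line.

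The second highest group was 10d for 34 of the 49 members, a count not made over all genes. For these 34 the median of the difference between 10d and CK was 0.79 on the log2 scale. The share of the difference between 5d and CK that was still there at 10d had a median of 81.6% over these genes. It ran from 15.1% in EVM0003245 to 98.7%, with 6 genes under 50%. Having 10d as second highest group favours a high share, so nothing is read from its height. The median share was 27.2% for the 5 members with 1h as second highest group, 43.2% for the 4 with 6h and 49.98% for the 5 with 1d. To ask whether the level at 10d differed from CK, a comparison that holds no 5d library, limma was fitted to all tested genes with the 14 kept libraries, and genes past a fold of 2 with adjusted p below 0.01 were called. The log2 differences given here are those of the fit. The rule used the means of CK and 10d too, since 5d had to exceed both and genes highest in either were left out. The counts against CK at this and the earlier times are therefore in part set by the rule, and nothing is read from how they differ from the shares over all genes. Of the 49 members, 12 were called up at 10d, against 18.5% of the 1088 tested genes. None was called down, against 35.0%. The 12 included EVM0009207 and EVM0005285, whose highest group on these 14 libraries was 10d and not 5d. At an unadjusted limma p under 0.05, 38 members had a higher level, against 36.6% of the tested genes, and 0 a lower one, against 51.8%. The median log2 difference was 0.62 over the members and -0.44 over all tested genes. After quantile normalization, which moved the median of all genes to 0.012 and the calls over all genes from 201 up and 381 down to 254 up and 231 down, 18 members were called up, against 23.3%, and none down, against 21.2%. With all 18 libraries 10 were called up, against 14.1%, and none down, against 31.8%. All 3 of the 10d libraries lay above all CK libraries for 40 members, against 36.5% of all genes. The left-out CK-1 lay below both other CK libraries for 29 members, against 51.2%, and above both for 16, against 37.3%.

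EVM0006535 had the largest rise at 10d, with a log2 difference of 1.82 (SE 0.24, adjusted p = 9.06e-06, limma, or 1.29 with 18 libraries). Its FPKM was 35.6, 10.4 and 11.6 in CK and 40.1, 37.9 and 46.8 at 10d. CK-1 was near the level of the 10d libraries, and with all 18 libraries the gene was not called (SE 0.43, limma adjusted p = 0.0124). EVM0009207 rose by 1.76 (SE 0.12, adjusted p = 2.07e-08, limma, or 1.45 with 18 libraries), from 76.1, 38.0 and 40.2 in CK to 141, 123 and 142 at 10d, and all 10d libraries lay above all CK libraries. Its highest group on the 14 kept libraries was 10d. EVM0009327 rose by 1.52 (SE 0.12, adjusted p = 5.23e-08, limma, or 1.56 with 18 libraries) and EVM0004167 by 1.37 (SE 0.10, adjusted p = 2.93e-08, limma, or 1.27 with 18 libraries). The FPKM of EVM0004167 was 121, 102 and 96.0 in CK and 241, 264 and 269 at 10d, with no overlap. EVM0008438 rose by 1.34 (SE 0.099, adjusted p = 3.35e-08, limma, or 1.61 with 18 libraries). The last 4 were called with all 18 libraries as well, and the direction of all 5 was kept under every alternative run.

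**Figure D4:**
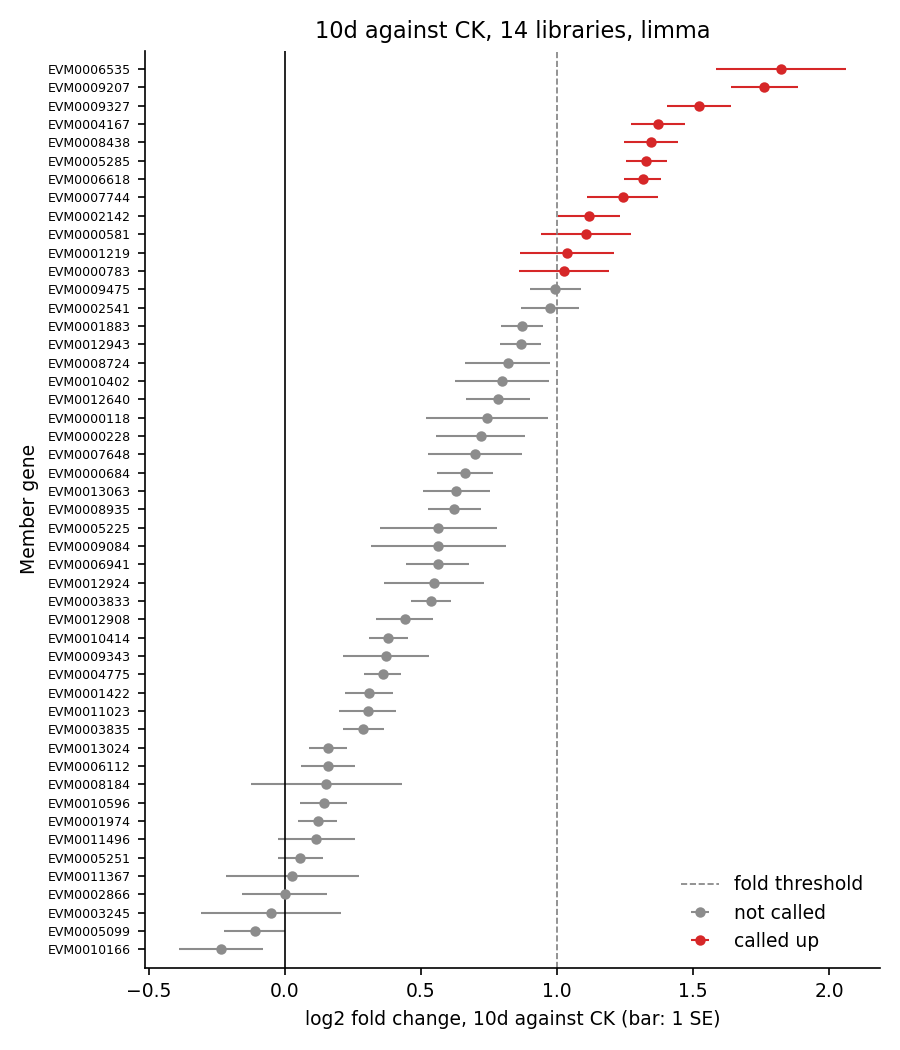
Log2 fold change at 10d against CK (x axis) of each of the 49 members (y axis) from limma on 14 libraries, with bars of 1 SE. The 12 called members, in red, lie right of the dashed line at 1, and EVM0010166 has the lowest value.

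EVM0009327 and EVM0008438 climbed from CK to 5d, each group mean above the one before it, and were lower again at 10d. The FPKM of EVM0009327 was 77.0, 83.8 and 83.0 in CK, 94.8, 128 and 154 at 1h, 186, 189 and 198 at 6h, 189.9, 220.3 and 231 after 1d, 278, 279.9 and 305 at 5d, then 248, 218 and 260.4 at 10d. It was called up at 6h, with a log2 difference of 1.19 (SE 0.12, adjusted p = 1.32e-06, limma, or 1.22 with 18 libraries), and at 1d, with 1.28 (SE 0.13, adjusted p = 1.68e-06, limma, or 1.38 with 18 libraries). EVM0008438 was close to CK at 1h, with 45.4, 44.0 and 34.9 against 23.9, 41.4 and 43.0 in CK, and was at 90.3, 81.9 and 89.6 at 6h. Its log2 differences were 1.03 (SE 0.099, adjusted p = 9.89e-07, limma, or 1.29 with 18 libraries) at 6h and 1.03 (SE 0.11, adjusted p = 2.66e-06, limma, or 1.42 with 18 libraries) at 1d. Quantile normalization kept the direction of both at 6h, but not the calls.

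At the other end, some members were back near CK at 10d. EVM0010166 had its second highest mean in CK, with an FPKM of 11.5, 13.5 and 11.4 in CK, 5.48, 4.76 and 4.35 at 6h, 12.6, 12.2 and 13.1 at 5d, then 9.89, 10.6 and 10.8 by 10d. The 5d and CK libraries overlapped. It was the member that fell at 6h, with a log2 difference of -1.20 (SE 0.16, adjusted p = 1.65e-05, limma, or -1.17 with 18 libraries), and its range came from this low rather than from a rise at 5d.

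For 8 members 1d was the lowest group, and 4 of them dropped deeply there before the peak at 5d. These were EVM0006112, EVM0010414, EVM0003835 and EVM0006941, of which EVM0003835 was picked after its values were seen. EVM0006112 had an FPKM of 62.9, 175 and 168 in CK, 97.2, 78.0 and 51.4 at 1h, 343, 366 and 358 at 6h, 19.1, 23.1 and 83.4 after 1d, 501, 198 and 463 at 5d, then 198, 195 and 183 at 10d. It was high at 6h, low at 1d and highest in the 5d libraries other than T-5d-2. EVM0010414 followed the same course, with 41.4, 119 and 119.5 in CK, 83.4, 80.3 and 51.5 at 1h, 158, 159 and 165 at 6h, 15.6, 18.6 and 38.1 after 1d, 263, 133 and 262 at 5d, then 153, 158 and 155 at 10d. The 4 left-out libraries departed from their groups in both genes, with CK-1, T-1h-3 and T-5d-2 lower and T-1d-3 higher than the others of their group. EVM0003835 went from 105 ± 4.78 (SD, n = 3) at 6h to 22.1, 20.7 and 40.0 at 1d and 193, 75.0 and 183 at 5d. EVM0006941 had no high level at 6h, with 20.6, 26.2 and 21.0, and its 1d libraries were at 3.59, 4.13 and 5.66. All its 1d libraries lay below those of every other group.

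Against CK, a comparison without 5d libraries, EVM0006112 fell at 1d with a log2 difference of -2.97 (SE 0.11, adjusted p = 8.00e-11, limma, or -1.85 with 18 libraries) and EVM0010414 with -2.73 (SE 0.079, adjusted p = 9.96e-12, limma, or -1.86 with 18 libraries). EVM0006941 fell with -2.37 (SE 0.13, adjusted p = 3.09e-09, limma, or -1.85 with 18 libraries) and EVM0003835 with -1.51 (SE 0.084, adjusted p = 4.24e-09, limma, or -0.82 with 18 libraries). With all 18 libraries, which add CK-1 and T-1d-3, EVM0003835 was not called. EVM0006112 was called up at 6h, with 1.05 (SE 0.099, adjusted p = 8.34e-07, limma, or 1.52 with 18 libraries), and not with all 18 libraries or after quantile normalization. In all, 5 members were called down at 1d, against 18.3% of the tested genes, and 4 up, against 8.55%. All 18 libraries gave 3 down, against 14.5%, and 3 up, against 6.50%. Without T-1d-2, 2 were up. After quantile normalization 7 were called up, against 11.0%, and 4 down, against 13.1%, and over all genes it moved the split at 1d from 93 up and 199 down to 120 up and 142 down. EVM0006618, with 1.11 (SE 0.076, adjusted p = 3.59e-08, limma, or 1.12 with 18 libraries), was the second of the members that rose at 1d after EVM0009327. Its FPKM was 103, 97.1 and 101 in CK, 217, 211 and 227 at 1d, 250.1, 261 and 252 at 5d, then 254, 259 and 229.9 by 10d, so its peak at 5d was a plateau of step 0.039.

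**Figure D5:**
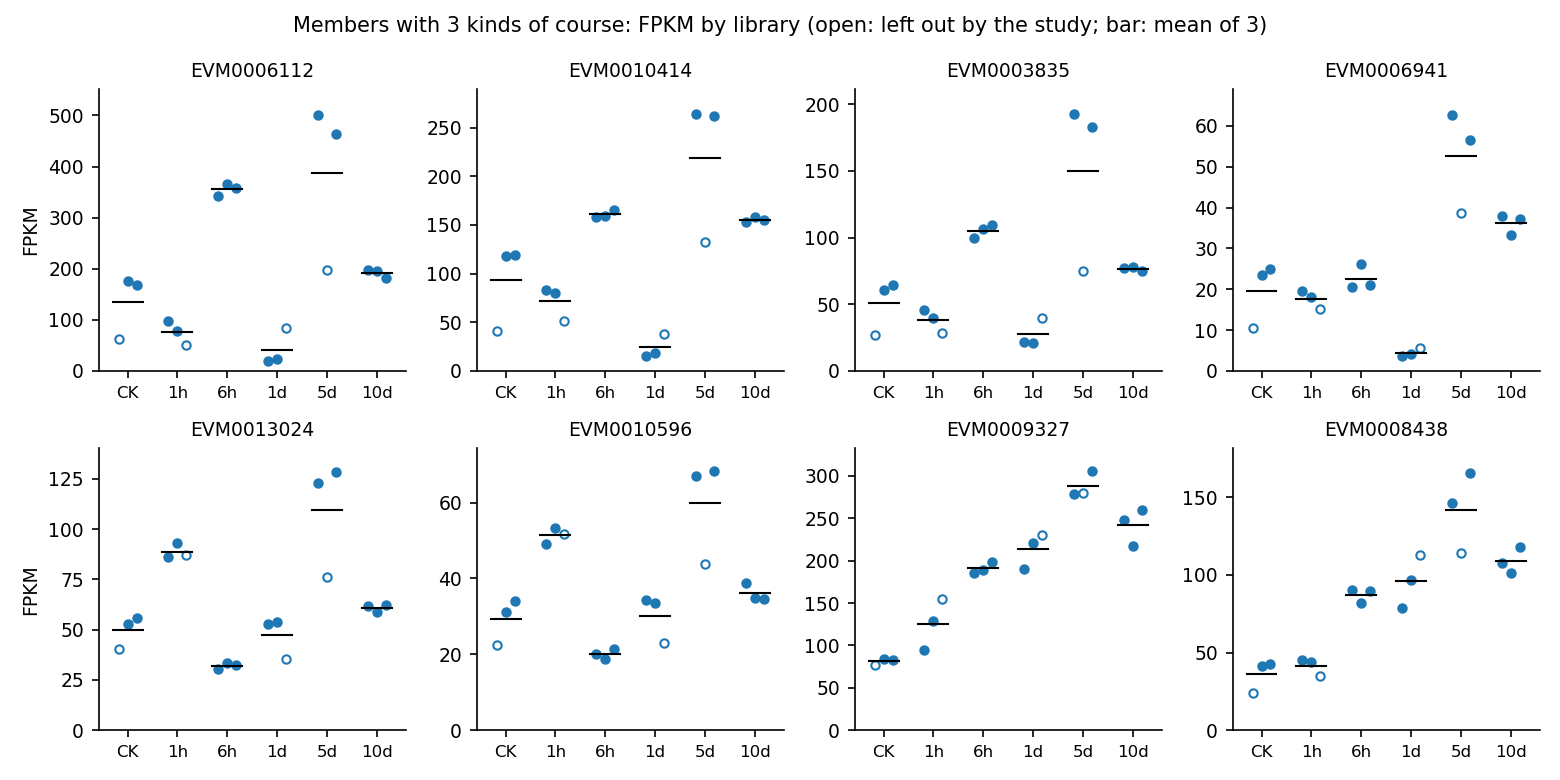
FPKM (y axis) of 8 members by group (x axis), with a point per library, open circles for libraries that the study left out and a bar for the mean of 3. The first 4 genes are lowest at 1d, EVM0013024 and EVM0010596 are high at 1h and 5d, and EVM0009327 and EVM0008438 climb from 1h to 5d.

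A second kind of course had high levels at 1h and 5d with a low between them. EVM0013024 and EVM0010596, picked after their values were seen, moved side by side in this way. EVM0013024 had an FPKM of 40.6, 52.9 and 56.0 in CK, 86.2, 93.1 and 87.2 at 1h, 30.6, 33.3 and 32.4 at 6h, 52.7, 54.0 and 35.3 after 1d, 123, 76.2 and 129 at 5d, then 61.6, 59.0 and 62.2 at 10d. EVM0010596 had 22.5, 31.1 and 34.2 in CK, 49.0, 53.4 and 51.7 at 1h, 20.2, 18.8 and 21.5 at 6h, 34.3, 33.4 and 22.9 after 1d, 67.1, 43.9 and 68.3 at 5d, then 38.9, 35.0 and 34.7 at 10d. Against CK at 1h, the log2 difference was 0.71 (SE 0.077, adjusted p = 4.74e-06, limma, or 0.83 with 18 libraries) for EVM0013024 and 0.63 (SE 0.095, adjusted p = 8.73e-05, limma, or 0.81 with 18 libraries) for EVM0010596, below the fold limit of a call. The ratio of their FPKM stayed between 1.51 and 1.88 in all 18 libraries, with a median of 1.69. Other pairs picked in the same way varied more. The ratio of EVM0006112 to EVM0010414 ran from 0.97 to 2.30 and that of EVM0003835 to EVM0010414 from 0.48 to 1.41. In EVM0013024 and EVM0010596, T-5d-2 was the lowest 5d library and lay below the libraries of 1h. EVM0011367 and EVM0000783 were also second highest at 1h. EVM0011367, a weak gene with an FPKM of 2.12, 1.33 and 1.92 in CK, was at 9.53, 7.01 and 2.91 at 1h, 7.01, 8.23 and 3.77 at 5d and 2.38, 1.15 and 1.59 at 10d. Its libraries at 1h and 5d overlapped.

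At 1h, 3 members were called up, against 10.6% of the tested genes, and 3 down, against 7.44%. EVM0011367 rose with a log2 difference of 1.81 (SE 0.27, adjusted p = 7.57e-05, limma, or 1.32 with 18 libraries), and EVM0000783, picked after its values were seen, with 1.14 (SE 0.18, adjusted p = 1.52e-04, limma, or 0.94 with 18 libraries). The last was EVM0002866, whose size is not given for the reason above. EVM0003245 fell with -1.54 (SE 0.28, adjusted p = 4.25e-04, limma, or -1.33 with 18 libraries), from 9.37, 12.4 and 12.1 in CK to 3.15, 4.02 and 4.47 at 1h. EVM0001974 fell with -1.39 (SE 0.077, adjusted p = 1.03e-08, limma, or -1.22 with 18 libraries), from 103, 120.3 and 112 to 41.4, 46.4 and 54.6. In both genes all 1h libraries lay below all CK libraries. EVM0003245 was also called down at 1d, with -1.05 (SE 0.28, adjusted p = 0.0053, limma, or -0.87 with 18 libraries). EVM0001974 was at 139, 136 and 130.1 at 6h and 136, 193 and 134 at 5d, where only T-5d-2 stood clear of the other times. The third call was EVM0007648, with 31.7, 18.7 and 23.2 in CK and 7.40, 11.2 and 10.6 at 1h. All 18 libraries gave 2 members up, against 9.97%, and 4 down, against 5.31%, quantile normalization 3, against 10.7%, and 5, against 8.18%, and T-1h-3 added alone to the 14 gave 5 down.

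The count of members lowest at 1h was 22 of the 49, more than at any other time, with 11 in CK, 8 at 1d, 7 at 6h and 1 at 10d. This was not counted over all genes, whose median was also below CK at 1h, at -0.14. The rule used the lowest mean too, so nothing is read from these counts. The median difference of the 22 between 10d and CK was 0.57, and that of the 11 lowest in CK was 1.19. At 6h, 4 members were called up, against 13.9%, and 1 down, against 8.82%. The largest rise was that of EVM0006535, with 1.72 (SE 0.24, adjusted p = 3.12e-05, limma, or 1.18 with 18 libraries) and an FPKM of 36.3, 40.4 and 38.6 at 6h. It was not called with all 18 libraries. All 18 libraries gave 2 up, against 14.1%, and 1 down, against 4.39%. Quantile normalization also gave 2 up, against 10.5%, and 1 down, against 10.3%, and moved the calls over all genes at 6h from 151 up and 96 down to 114 up and 112 down.

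The members with the highest mean FPKM were EVM0000581, EVM0002142, EVM0000684, EVM0006112 and EVM0009327. EVM0000581 was at 128, 157 and 147 in CK and 389, 299 and 394 at 5d, and EVM0002142 at 155, 167 and 175 and 409, 339 and 395. At 10d they were at 347, 295 and 346 and 327, 392 and 401, within or near the range of 5d. EVM0000684 was at 312, 243 and 346 at 5d, while the 10d libraries held 283, 261 and 308, with T-5d-2 below all 10d libraries. The members with the smallest steps on 18 libraries were EVM0005225, EVM0006112 and EVM0008184. That of EVM0006112 was 0.44 on the 14 kept libraries, which lack T-5d-2. EVM0005225 and EVM0008184 were among the lowest in level, with an FPKM of 3.61, 4.37 and 4.13 and 3.53, 4.60 and 2.96 at 5d and 4.49, 4.50 and 3.17 and 5.12, 2.24 and 3.87 at 10d. For both the 5d and 10d libraries overlapped, and the steps of 0.0048 and 0.018 do not separate the groups.

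At the limit of the rule on the range, EVM0002541, EVM0012908 and EVM0008724 lay just inside, with ranges of 1.01, 1.02 and 1.03. EVM0006102, EVM0006725 and EVM0006727 lay just outside, with 0.999, 0.996 and 0.991. The step of EVM0006727 was 0.49 and that of EVM0012908 0.34, so genes outside could have a clearer peak than genes inside.

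Compared with 5d itself, which the rule used, 30 members were called up at 5d against CK, where 14.2% of the tested genes were, and 7 were called down from 5d to 10d, where 7.44% were. Nothing is read from these shares. With all 18 libraries the numbers were 30, against 11.7%, and 1, against 0.274%. The 1 gene was EVM0002866.

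Among the genes that the study annotates, 14 with EVM identifiers followed the rule on the range and the peak, and 6 of them have a Pfam family. They give the only functions known here for this course. EVM0001099 and EVM0006992 carry the Hsp20 domain of small heat shock proteins, chaperones that hold unfolded proteins. EVM0001099 was at 156, 55.1 and 196 at 5d and EVM0006992 at 869, 475 and 1001, so that T-5d-2 was the lowest in both, as in EVM0009343. EVM0007103 encodes a flavin-binding monooxygenase, an enzyme class that adds oxygen to small molecules, and was at 486, 532 and 517 at 6h, 231, 333 and 369 at 1d and 1358, 497 and 1308 at 5d. EVM0009931 encodes a bacteriorhodopsin-like membrane protein and was at 192, 152 and 204 at 5d against 124, 116 and 133 at 10d. EVM0005918, for a dihydroorotate dehydrogenase of pyrimidine synthesis, was weak, with 6.89, 4.72 and 4.65 at 5d and 1.79, 2.13 and 1.70 in CK. EVM0006859, for a short-chain dehydrogenase, was at 91.5, 103 and 87.2 at 5d and 76.9, 86.3 and 82.0 at 10d. The study listed all 14 among genes that changed at 10d. EVM0007948 was listed as changed at every time, and the others within 1 set of co-expressed genes. The 14 therefore do not show what share of genes with this course such functions have.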

How the data were processed

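RNA was sequenced from 18 mycelium libraries, 3 in each of 6 groups. According to the study, the authors cleaned the reads, aligned these to the genome of the fungus by HISAT2 and built transcripts in StringTie. Bowtie 0.12.2 is named as well in the submitters' processing notes. The authors deposited FPKM values, which entered here unchanged. The header names no unit, and it was taken from the equality of 392 of 392 values with an FPKM table of the study (relative tolerance 1e-05). The genome build is not given in the sources used here, and 0 of the identifiers were in the reference gene table. How the 1100 genes were selected is not stated, so shares of genes cover this table alone.

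The members and all lists were chosen with earlier results of these data known. The rule was applied to log2(FPKM + 1) over 18 libraries. limma 3.58.1 in R 4.3.3, with a variance trend, was fitted to all genes reaching 1 FPKM in 2 or more libraries and to all 6 groups at once, with the 14 libraries kept by the study (1088 genes, prior of 4.69 degrees of freedom) and with 18 (1093 genes). All 49 members passed this filter. Benjamini-Hochberg adjustment ran over all tested genes. Calls needed adjusted p below 0.01 and a fold past 2, both on log2(FPKM + 1), a scale on which changes of weak genes come out too small. The spread of the 14 libraries lacks the departures of those left out, so its SEs may be too small. The fit was tested on simulated data. Python 3.11.15 and pandas 2.3.3 made the tables.

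Named genes were the 10 members with the largest step of 5d over the next group and the 3 with the smallest, the 5 with the highest mean FPKM, the 3 just inside and just outside the limit, the members with all 5d libraries above the others, and the largest rises and falls called against CK (5 at 10d, 2 at 1h, 6h and 1d). Annotated and newly assembled genes with the same course were added by their step. Genes outside this rule are said to be so.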

Additional observations from a re-analysis of the deposited data

How the results depend on the processing

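The direction of every named rise at 10d was kept in the alternatives run, and EVM0006535 alone lost its call, with all 18 libraries (log2 difference 1.29, limma adjusted p = 0.0124). A range of at least 1.5 left 19 genes, the 14 kept libraries gave 55 with 41 of the 49 members, and a pseudocount of 0.1 gave 55 with all 49. Quantile normalization gave 43 with 34 of the members, group medians 50 with 42, and leaving out 1 library at a time gave 46 to 59, with 31 members kept in every one of these. Quantile normalization gave 5 members down at 1h, 2 up at 6h and 7 up at 1d, and adding T-1h-3 gave 5 down at 1h. All 18 libraries gave 2 up at 6h and 3 down at 1d. Leaving out each replicate in turn gave 10 to 14 rises and 0 falls at 10d, 2 to 3 rises and 3 falls for 1h, 4 to 5 rises with 1 fall for 6h, and for 1d 2 to 4 rises and 4 to 6 falls, with 2 up without T-1d-2. A group left with 1 library was assumed to vary like the others. The cause of these shifts was not tested.

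Replicate numbers showed no sign of pairing the samples. Same-numbered libraries had correlations of their deviations from -0.54 to 0.45, with a median of -0.029. Those of other-numbered libraries ran from -0.51 to 0.59, with a median of 0.022. All 18 libraries entered, so departures of the left-out ones could hide a pairing. With the replicate number as a block, members numbered 12 rises and 0 falls for 10d, 4 of each for 1h, 4 rises with 1 fall for 6h, and 4 of each for 1d. Without read counts per gene, precision by depth could not be given.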

Other observations

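Of the 115 newly assembled transcripts in the table, 9 had their highest mean at 5d and a range of at least 1. Sparassis_latifolia_newGene_1728 had the tallest peak, with a step of 1.13 over 10d and an FPKM of 1.23, 1.27 and 0.196 in CK, 17.0, 5.79 and 14.1 at 5d and 4.46, 4.79 and 4.62 at 10d. T-5d-2 was the lowest 5d library. Sparassis_latifolia_newGene_712 was at 0.978, 0.774 and 0.546 in CK and 4.17, 3.12 and 3.07 at 5d, and all its 5d libraries exceeded the others. Sparassis_latifolia_newGene_1518 was at 0.936, 0.356 and 0.481 in CK, 3.60, 2.02 and 2.82 at 5d and 1.68, 2.05 and 2.09 at 10d.

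Above the ceiling of 300 FPKM, 6 more genes had the same course. They were chosen after their values were seen. EVM0002937 had the largest step, 0.51, with 256, 317 and 316 in CK, 710.1, 602 and 762 at 5d and 474, 472 and 506 at 10d. EVM0003943 had the low at 1d seen in EVM0006112, with 818, 859 and 864 at 6h, 56.2, 61.2 and 153 at 1d and 1474, 420.3 and 1365 at 5d.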
